A study of Mus musculus with 2 samples.

Results

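The Mir322 to Mir450 cluster is a group of 7 microRNA (miRNA) genes on the minus strand of the mouse X chromosome. Its genes, in the order of transcription, are Mir322, Mir503, Mir351, Mir542, Mir450a-2, Mir450a-1 and Mir450b. They were taken by gene symbol in the GENCODE M21 annotation, which writes Mir450a-1 and Mir450a-2 as Mir450-1 and Mir450-2. All 7 had a row among the 1973 miRNA genes of each count table. The libraries hold small RNA of the forebrain of B6NCrl mouse embryos at embryonic day 16.5, with male and female embryos pooled and no treatment named. Biological replicate 2 was a pool of 41 embryos and biological replicate 1 a pool of unstated size. The pools have separate biosample records and share a donor record. Both belong to a single group, and for that reason every difference given here is between 2 libraries and not between conditions. The tissue is whole forebrain, and a lower level from fewer cells of a type cannot be told apart from less RNA per cell.

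A polycistron is a stretch of DNA from which several miRNA hairpins are cut out of a single long transcript. Each hairpin gives a mature strand of about the length of a sequencing read here, and the seed, bases 2 to 8 of that strand, pairs with target messenger RNAs. Members of a polycistron can therefore share a promoter and still carry unrelated seeds. Mir322, known in human as MIR424, and Mir503 are known for repressing cell cycle genes such as cyclins, and in mouse myoblasts for promoting exit from the cell cycle during differentiation. Their seeds belong to the same group as those of miR-15 and miR-16, which also restrain the cell cycle.

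The sequences show which members are related by seed and which are not, with capitals marking the seed. They are mature forms from RefSeq on GRCm38.p6, written 5′ to 3′. All members had mature entries there, with 13 distinct mature forms and 12 distinct seeds.
miR-322-5p: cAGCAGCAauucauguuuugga
miR-503-5p: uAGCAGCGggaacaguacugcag
miR-15a-5p: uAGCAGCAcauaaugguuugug
miR-15b-5p: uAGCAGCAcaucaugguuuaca
miR-16-5p: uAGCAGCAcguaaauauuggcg
miR-351-5p: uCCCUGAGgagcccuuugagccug
miR-125a-5p: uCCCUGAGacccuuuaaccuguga
miR-125b-5p: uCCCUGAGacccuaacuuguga
miR-542-3p: uGUGACAGauugauaacugaaa
miR-450a-5p: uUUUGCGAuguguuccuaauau
miR-450b-5p: uUUUGCAGuauguuccugaaua

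The seed of miR-322-5p was identical to that of 9 other mature miRNAs in the RefSeq set, among them miR-15a-5p, miR-15b-5p, miR-16-5p, miR-195a-5p and miR-497a-5p. Over the whole length, miR-322-5p was closest among those compared to miR-15b-5p, with 16 of 22 positions equal when aligned from the first base without gaps. It matched miR-15a-5p at 15 positions and miR-16-5p at 12. The seed of miR-503-5p shares its first 6 bases with that group and differs at the last, and no other mature miRNA of the set carried it. Its whole sequence matched miR-322-5p at 11 of 22 positions. The seed of miR-351-5p was that of miR-125a-5p and miR-125b-5p, 2 of 4 other mature forms that carry it. Over the whole length, seed included, miR-351-5p and miR-125a-5p were equal at 10 of 24 positions, and outside the seed at 3 of 17. The 3p strand of Mir542, a miRNA studied as a repressor of survivin in tumour cells, carried a seed found in no other mature form. Mir450a-1 and Mir450a-2 give the same 5p form, miR-450a-5p. It differs from miR-450b-5p within the seed and is equal to it at 15 of 22 positions.

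The genes span 6353 bases at chrX:53047997-53054349 (mm10, minus strand). Mir322 (ENSMUSG00000065418.1) is the most upstream, at 53054255 to 53054349. Mir503 (ENSMUSG00000076122.1) follows after 200 bases at 53053984 to 53054054, and Mir351 (ENSMUSG00000065503.1) after another 630 bases at 53053255 to 53053353. Mir542 (ENSMUSG00000076140.1) lies 3767 bases further on, at 53049403 to 53049487. The Mir450 genes begin 1035 bases beyond it and are 54 and 75 bases apart. Mir450a-2 (ENSMUSG00000076399.1) occupies 53048299 to 53048367, Mir450a-1 (ENSMUSG00000065486.1) 53048154 to 53048244, and Mir450b (ENSMUSG00000076050.1) 53047997 to 53048078. In GENCODE M21 no other gene of the same strand overlapped a member. The transcript C430049B03Rik ends 696 bases upstream of Mir322, and the lincRNA Gm28730 lies between Mir351 and Mir542.

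All 7 genes had at least 5 reads in both libraries, and their mean levels ran from 11444 CPM for Mir322 to 2.07 CPM for Mir450a-2. CPM is the count of a gene per 1000000 counts on the gene strand, computed from the raw counts of the deposited tables. The gene-strand totals were 4158686 in replicate 2 and 5060112 in replicate 1. Together the members had 56605 counts in replicate 2, or 1.36% of the total (exact Clopper-Pearson 95% interval 1.35% to 1.37%). In replicate 1 they had 61059 counts, or 1.21% (1.197% to 1.22%). The mean share was 1.28% ± 0.109 (SD, n = 2), and 0.607% when reads mapping to several loci were added to the library totals. The labels mention no molecular identifiers, so these intervals account for counting error alone. None of the members had a read on the opposite strand in either library.

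Mir322 was the dominant gene of the cluster, with 50675 counts in replicate 2 and 54152 in replicate 1. Its level was 12185 CPM in replicate 2 and 10702 CPM in replicate 1, a mean of 11444 ± 1049 CPM (SD, n = 2). It was the most abundant of the 120 X-linked miRNA genes with a row, of which 54 had a count in either library. The whole cluster held 29.7% ± 1.01 of the X-linked miRNA counts (SD, n = 2). Within the cluster, Mir322 took 89.5% of the counts in replicate 2 (exact interval 89.3% to 89.8%) and 88.7% in replicate 1 (88.4% to 88.9%). Reads of miR-450a-5p that fit both Mir450a loci are not in these counts.

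Mir351, the member with the miR-125 seed, was second. It had 4086 counts in replicate 2 and 5013 in replicate 1, at 983 and 991 CPM, a mean of 987 ± 5.78 CPM. The coefficient of variation of these levels was 0.585%. That figure holds for unscaled library totals. With totals scaled by TMM, described below, the SD of the Mir351 level was 63.9 CPM. Mir322 was 12.4 times as abundant in replicate 2 and 10.8 times in replicate 1. The share of Mir351 in the cluster was 7.22% in replicate 2 (exact interval 7.01% to 7.43%) and 8.21% in replicate 1 (7.99% to 8.43%), and the counting intervals did not overlap.

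Mir542 and Mir503 followed at intermediate levels. Mir542 had 1072 counts in replicate 2 and 1129 in replicate 1, which is 258 and 223 CPM and a mean of 240.4 ± 24.5 CPM. Mir503, the nearest neighbour of Mir322 and its relative by seed, had 571 counts in replicate 2 and 572 in replicate 1, which is 137 and 113 CPM and a mean of 125 ± 17.2 CPM. Mir322 was 88.7 times as abundant as Mir503 in replicate 2 and 94.7 times in replicate 1, although the hairpins lie 200 bases apart. Mir542 took 1.89% of the cluster in replicate 2 and 1.85% in replicate 1, and Mir503 took 1.01% and 0.937%.

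The Mir450 genes, at the 3′ end of the cluster, were the lowest by uniquely placed reads, which fit a single locus. Mir450b had 180 counts in replicate 2 and 166 in replicate 1, at 43.3 and 32.8 CPM, a mean of 38.0 ± 7.41 CPM. Mir450a-1 had 12 counts in replicate 2 and 17 in replicate 1, at 2.89 and 3.36 CPM. Mir450a-2 had 9 and 10 counts, at 2.16 CPM in replicate 2 and 1.98 CPM in replicate 1. By these reads both Mir450a genes lay far below their neighbour Mir450b, whose mean was 12.2 times that of Mir450a-1. Reads of miR-450a-5p that fit both Mir450a loci are left out, so the full level of that form is not known.

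**Figure D1:**
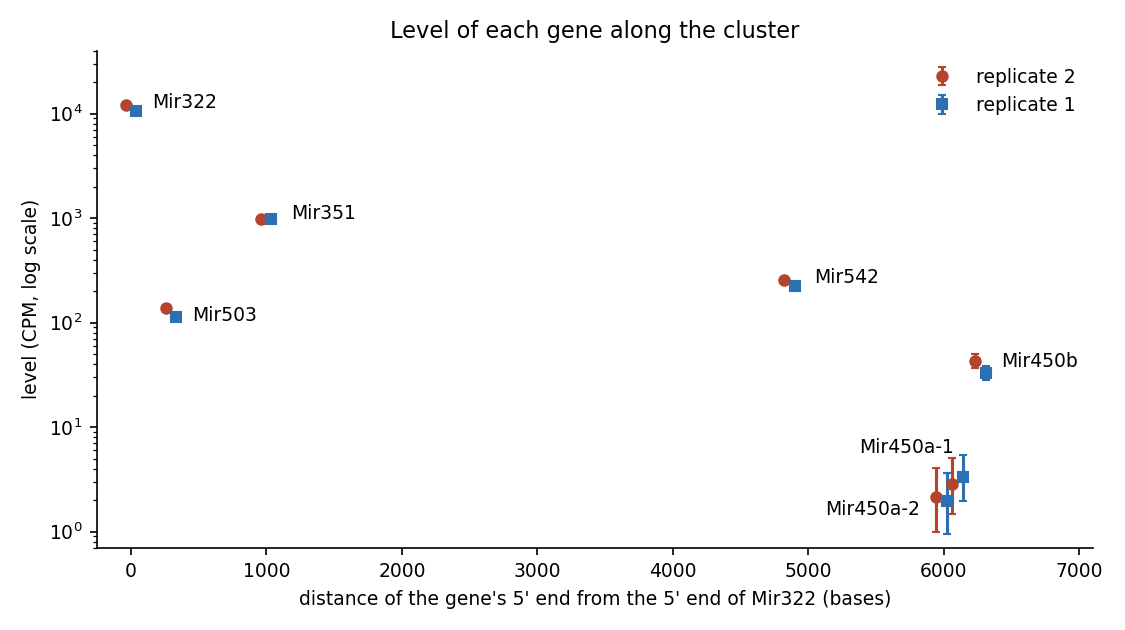
Level of each of the 7 genes in CPM on a log scale, against the distance of its 5′ end from that of Mir322 in bases. Points are the libraries, drawn slightly apart, with replicate 2 left of replicate 1, and bars are exact 95% counting intervals. Mir322 averages 11444 CPM, and by uniquely placed reads the Mir450a genes lie between 1.98 and 3.36 CPM.

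The order of the levels did not follow the order of the genes along the transcript. From high to low by uniquely placed reads it was Mir322, Mir351, Mir542, Mir503, Mir450b, Mir450a-1 and Mir450a-2, the same order in each library alone. Each gene was higher in its lower library than the next gene in its higher library. The Mir450a genes are the pair whose counting intervals overlapped: Mir450a-1 had 1.49 to 5.04 CPM in replicate 2 and 1.96 to 5.38 CPM in replicate 1, and Mir450a-2 had 0.990 to 4.11 CPM and 0.948 to 3.63 CPM. A sequenced read spans a mature miRNA whatever the hairpin length, so levels were compared without division by gene length; per 1 kb of annotated gene the order was the same. With 2 libraries no permutation test of an order can reach a p under 0.05, and none was made. The reads are counted per gene, so the tables do not say which arm of a hairpin they came from.

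The low counts of the Mir450a genes stand beside a sequence fact. Their hairpins share a run of 25 bases, in capitals here, that contains the whole of miR-450a-5p, and both genes give that mature form.
Mir450a-2: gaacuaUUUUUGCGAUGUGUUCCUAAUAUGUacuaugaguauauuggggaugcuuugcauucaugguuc
Mir450a-1: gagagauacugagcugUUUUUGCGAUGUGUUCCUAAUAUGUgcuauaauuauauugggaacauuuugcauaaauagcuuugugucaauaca
A read of that mature form fits both loci. Reads with several possible loci have a row of their own in the tables, with 43.3% of all reads in replicate 2 and 40.5% in replicate 1. The part of this in the low counts of Mir450a-1 and Mir450a-2 was not tested. Among 15 other listed genes that by their RefSeq entries give a mature form of another gene, counts ran from low to high. Mir199a-1 had 4 in replicate 2 and 0 in replicate 1, Mir19b-2 had 11 and 21, Mir16-1 had 11990 and 15787, and Mir128-1 had 17155 and 17686. Listed genes without a RefSeq mature entry could not be placed among these 15. They include the Mir133a genes at 0 counts, the Mir124a genes at 4 to 25 per library, and Mir143 at 20881 in replicate 1. Of 1674 distinct mature sequences in the RefSeq set, 54 (3.23%) are carried by more than 1 gene, and miR-450a-5p is the only such form in the cluster.

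The 3′ strands of the Mir450 genes are resolved by sequence to a different degree. Capitals mark the seed.
miR-450a-1-3p: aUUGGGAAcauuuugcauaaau
miR-450a-2-3p: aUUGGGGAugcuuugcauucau
miR-450b-3p: aUUGGGAAcauuuugcaugcau
The 3p forms of Mir450a-1 and Mir450b share their seed and are equal at 20 of 22 positions, while miR-450a-2-3p differs from miR-450a-1-3p at 6 positions. No mature form of Mir450b is carried by a second gene, and its longest run shared with another hairpin is 19 bases, with Mir450a-1. For Mir322, Mir503 and Mir542 the longest such run is 11 or 12 bases. The hairpins of the Mir450 genes are also poorer in G and C, at 30.5% to 36.2%, than those of Mir322 (51.6%), Mir503 (54.9%) and Mir542 (51.8%). The part of base composition in the levels was not tested. Mir351 had no hairpin entry.

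Set among the listed relatives, Mir322 was the most abundant by uniquely placed reads. The list of relatives held Mir15a, Mir15b, Mir16-1, Mir16-2, Mir195a, Mir195b and Mir497b, and 5 of these 7 had at least 5 counts in both libraries. Mir497a, whose 5p form carries the seed, had no row under that symbol and is in none of these levels. Mir497b was listed by its name, and its RefSeq mature form does not carry the seed. Mir15a, which like Mir16-1 comes from a cluster on chromosome 14, had 8267 CPM in replicate 2 and 6521 CPM in replicate 1, a mean of 7394 ± 1234 CPM (SD, n = 2). Mir16-1 averaged 3002 ± 167 CPM and Mir15b 1373 ± 266 CPM. The other relatives were at most 735 CPM on average, and Mir195b and Mir497b had 0 counts in replicate 2 and 1 count in replicate 1. On the strand opposite to Mir497b, replicate 2 held 3672 reads and replicate 1 held 3351, which are not in these levels. Both libraries of Mir322 stood above both libraries of Mir15a.

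Mir322 and Mir503 together made up 46.8% of the uniquely placed counts of these 9 listed genes in replicate 2 (exact interval 46.5% to 47.1%) and 47.3% in replicate 1 (47.1% to 47.6%), a mean of 47.1% ± 0.403. Reads of miR-16-5p that fit both Mir16 loci are not in this total, so the share is of uniquely placed reads only. The total also leaves out Mir497a. Mir503 contributed little to the share and was below each of the 5 detected relatives.

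Mir351 was the lowest of the 4 genes compared that carry the miR-125 seed. The others were Mir125a at 5104 ± 737 CPM, Mir125b-2 at 2513 ± 73.9 CPM and Mir125b-1 at 2470 ± 179 CPM, which are known in brain for acting on neuronal differentiation. Mir351 made up 9.16% of the counts of these 4 genes in replicate 2 (exact interval 8.89% to 9.43%) and 8.67% in replicate 1 (8.45% to 8.91%). Mir125b-1 and Mir125b-2 give the same mature form, so reads of theirs may be missing from this total.

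**Figure D2:**
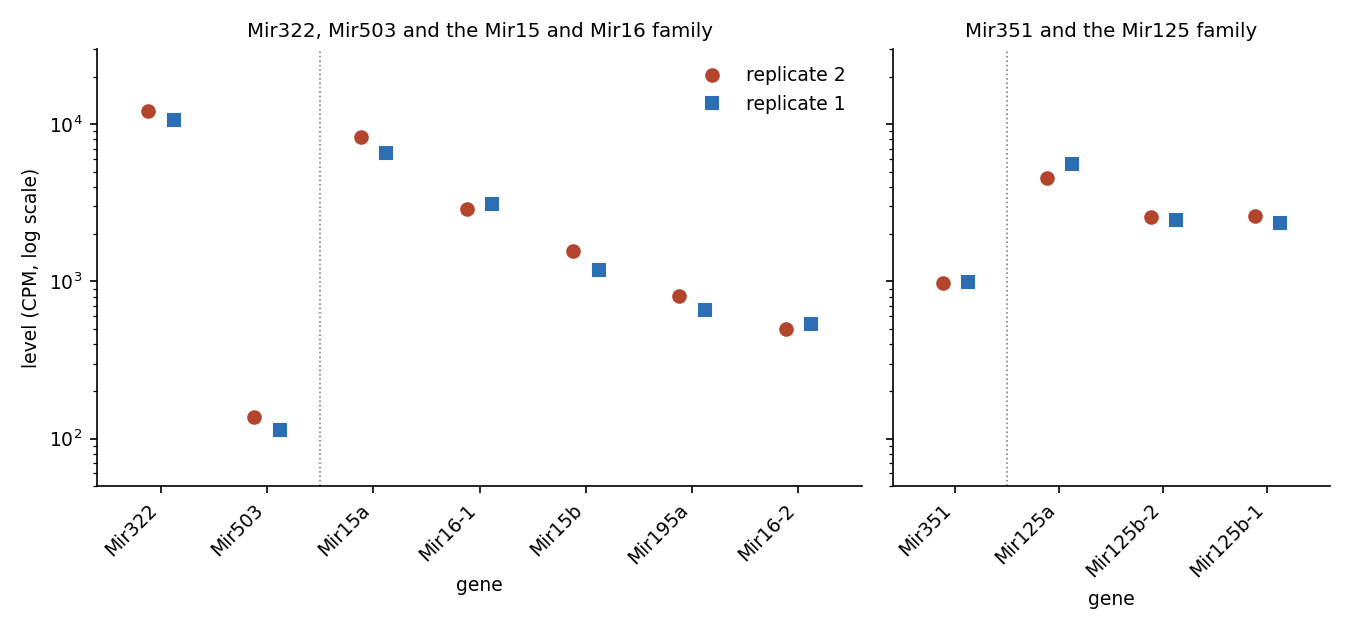
Level in CPM on a log scale of cluster genes (left of the dotted line in each panel) and of the genes with related seeds that had at least 10 counts in all (right of it). Circles are replicate 2 and squares replicate 1; Mir322 stands above all relatives in its panel, while Mir503 and Mir351 stand below all of theirs.

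The counts of the cluster were concentrated in its top gene. It was set beside the other genomic clusters in which at least 5 genes reached 5 counts in each library, where a cluster joins neighbours on the same strand with starts within 10 kb. There were 7 such clusters, and the Mir322 cluster ranked number 3 by summed level, at 12839 CPM. Mir322 held 89.1% of that sum, and the top genes of the other 6 clusters held between 31.7% and 62.7%. In the Mir17 to Mir92 cluster on chromosome 14, Mir17 held 62.7% of 43111 CPM. In the Mir106a to Mir363 cluster, also on the X chromosome, Mir106a held 33.2% of 636 CPM. The log2 span from the highest to the lowest detected gene was 12.43 in the Mir322 cluster, against 11.09 and 5.96 in these clusters, and was widest, at 13.71, in the cluster of Mir487b on chromosome 12. The lowest genes of the Mir322, Mir17 and Mir106a clusters give a mature form that a second gene also gives. The spans and top-gene shares of these clusters are therefore uncertain, and the comparison is a description without a test.

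Between the libraries, 5 of the 7 members were higher in replicate 2 and none was lower by the exact binomial test. The two-sided test covered the 466 genes whose counts summed to at least 10, with Benjamini-Hochberg adjustment at 0.05. Library totals were scaled by TMM, the trimmed mean of M values. Reads are taken as independent draws and the spread between pools is not modelled, so the calls describe these libraries only. Members of a polycistron can come from a shared transcript, so their calls may not be separate observations. Of all genes tested, 45.3% were called in either direction, 23.4% as higher in replicate 2 and 21.9% as lower. With unscaled totals these shares were 47.6%, 14.4% and 33.3%. The members' median log2 ratio of replicate 2 over replicate 1 was 0.33, beside 0.0071 over all genes tested. Without regard to sign, the medians were 0.33 for the members and 0.33 for all genes.

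The log2 ratio was 0.33 for Mir322, with an adjusted p of 3.58e-299 that is set by the smallest p written, 1e-300. For Mir503 it was 0.42 (adjusted p = 2.72e-06), for Mir542 0.35 (4.73e-08) and for Mir450b 0.54 (0.00136), all by the exact binomial test. Mir351 had the smallest ratio of those called, 0.13, with an adjusted p of 4.58e-05 by the same test. With unscaled library totals, which lower every ratio by 0.14 on the log2 scale, Mir351 was at -0.012 and was not called (adjusted p = 0.825 by the exact binomial test), and 4 members were called higher and none lower. Mir450a-2 had a ratio of 0.28 and Mir450a-1 of -0.058, with adjusted p-values of 0.907 and 1 by the exact binomial test, on fewer than 20 counts in each library.

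**Figure D3:**
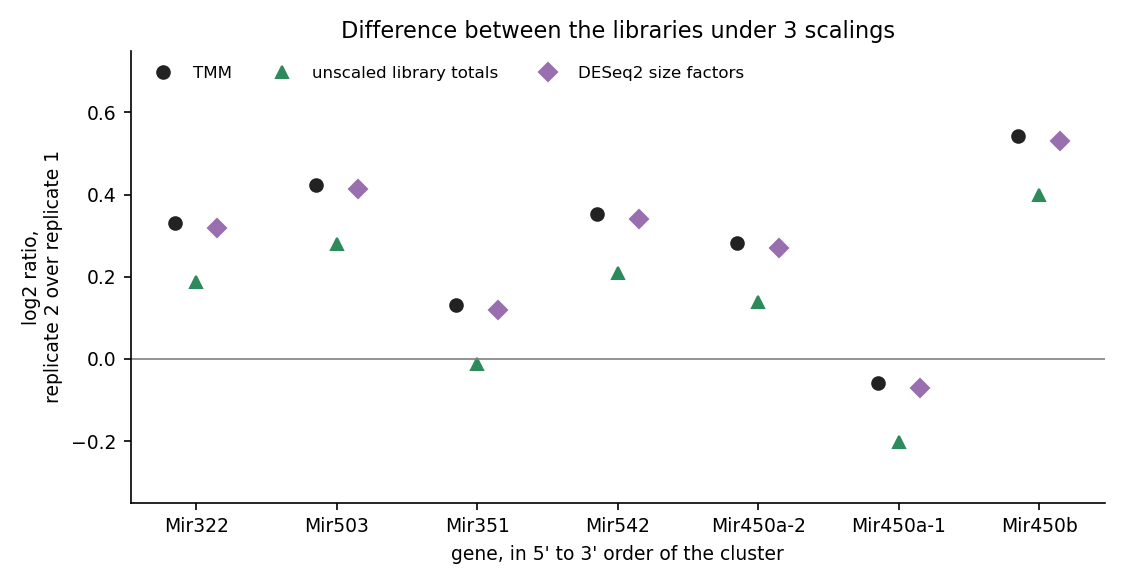
Log2 ratio of replicate 2 over replicate 1 for each gene, in 5′ to 3′ order, under TMM scaling, unscaled totals and DESeq2 size factors. Mir322, Mir503, Mir542 and Mir450b lie above 0 under all 3 scalings, Mir351 lies at 0.13 with TMM and at -0.012 with unscaled totals, and the ratios of the Mir450a genes rest on 9 to 17 counts.

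The miR-15 and miR-16 relatives and the marker miRNAs give the setting of these ratios. Of the 5 relatives tested, 3 were called higher in replicate 2 and none lower, beside 23.4% and 21.9% of all genes tested. Their median log2 ratio was 0.43. With unscaled totals 3 were higher and 2 lower, beside 14.4% and 33.3% of all genes, and their median was 0.29. The relatives called higher with TMM were Mir15a (0.49), Mir15b (0.54) and Mir195a (0.43). The Mir106a to Mir363 cluster on the same chromosome had 1 gene called higher and 1 lower of 6, with a median of -0.047. With unscaled totals none was higher and 3 were lower, with a median of -0.19.

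Of the 6 listed markers of vessel wall and mesenchymal cells, 5 were tested. Mir143 lies close to Mir145a on the same strand, and Mir199a-2 to Mir214, so their calls may not be separate observations. By the exact binomial test 4 of the 5 tested were called higher in replicate 2 and none lower. Among all genes tested, 23.4% were called higher and 21.9% lower. The median log2 ratio of the 5 markers was 0.73. With unscaled totals the calls were the same in number, beside 14.4% called higher and 33.3% called lower among all genes. The markers' median was then 0.58. None was at 0 in both libraries, and the summed level was 4798 CPM in replicate 2 and 4402 CPM in replicate 1. Endothelial Mir126a had a ratio of 0.34 and levels of 18999 CPM in replicate 2 and 16611 CPM in replicate 1. Of 3 tested muscle genes, 1 was called higher and 1 lower, and with unscaled totals none was called higher and 1 lower. The list had a median of -0.63 with TMM. That median is the ratio of Mir208a, on 6 counts in replicate 2 and 13 in replicate 1. The list's summed level was 37.5 CPM in replicate 2 and 44.5 CPM in replicate 1, and Mir1a-1, Mir133a-1 and Mir133a-2 were at 0 in both. These are uniquely placed reads, so a 0 does not show that the miRNA was absent. The neural list, with 9 of 10 genes present as rows, had a summed level of 22637 CPM in replicate 2 and 23314 CPM in replicate 1. None of these genes was at 0 in both libraries. Its median log2 ratio was 0.066, or -0.078 with unscaled totals. With TMM 3 of its 9 genes were called higher and 1 lower, beside 23.4% and 21.9% of all genes tested. All these list levels are of uniquely placed reads. By RefSeq entries, 4 neural and 3 mesenchymal genes give a mature form of another gene, and the Mir124a genes had no entry. Reads of such genes may be missing from the sums, so levels of different lists are not compared. The erythroid list summed to 240.5 CPM in replicate 2 and 306 CPM in replicate 1, with 1 of 3 genes called higher and 1 lower. The liver marker Mir122 was at 64.9 CPM in replicate 2 and 97.8 CPM in replicate 1, and was called lower. The part of these cell types in the ratios of the cluster genes was not tested.

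**Figure D4:**
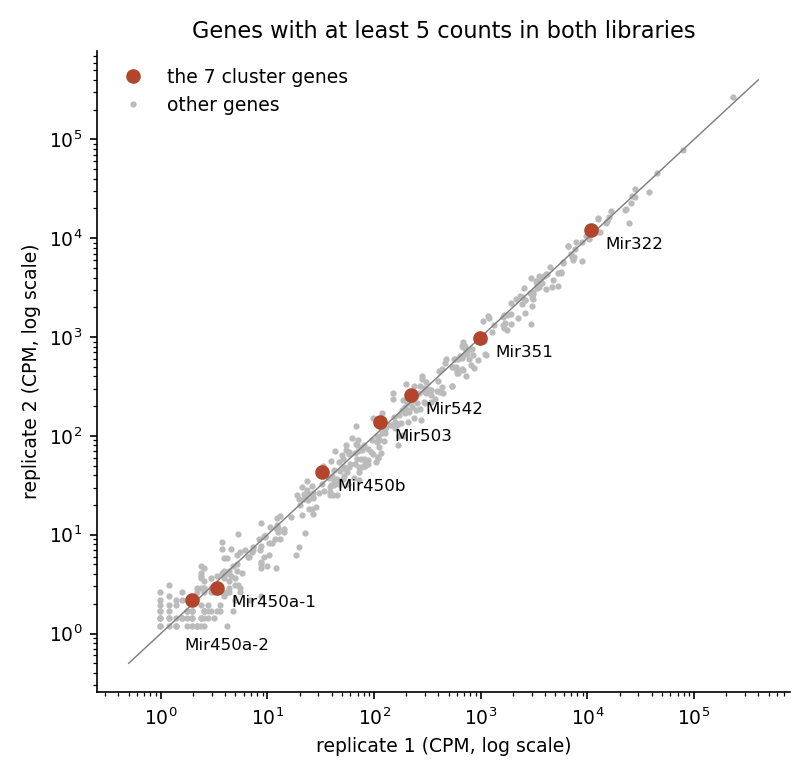
Level of every gene that reached 5 counts in each library, replicate 2 against replicate 1, in CPM on log scales, with the line of equality. The cluster genes (large points) lie along that line from Mir450a-2 at a mean of 2.07 CPM to Mir322 at a mean of 11444 CPM.

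Among all 1973 genes, Mir322 ranked 20th by mean level of uniquely placed reads, Mir351 87th, Mir542 149th, Mir503 184th and Mir450b 254th. Mir450a-1 and Mir450a-2 were at 364 and 395. The median of the 438 genes that reached 5 counts in each library was 66.7 CPM, with 4 members above it and 3 below. The genes most like Mir322 in log2(CPM + 1) over the 2 libraries were Mir30a, at a distance of 0.226, Mir106b at 0.258 and Mir20a at 0.317. Mir30a averaged 12042 ± 559 CPM, and its log2 ratio between the libraries was 0.049. Mir106b averaged 10093 ± 615 CPM with a ratio of 0.27, and Mir20a 10089 ± 407 CPM with a ratio of 0.062. With 2 libraries of a single group, this likeness is of level only.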

How the data were processed

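MicroRNA sequencing of 2 forebrain pools was used. The authors deposited raw read counts per gene in 3 columns, without regard to strand and for each strand, with 4 rows of unassigned reads that were kept out of totals and tests. Per the deposited file descriptions, the assembly was mm10 and the annotation GENCODE M4; which aligner, counter, versions and trimming were used is not given in the sources here. Counts on the gene strand, 98.3% of all counts per gene in replicate 2 and 98.1% in replicate 1, were divided by their library total. Of all reads, 15.2% in replicate 2 and 19.1% in replicate 1 were unmapped. Symbols and positions came from GENCODE M21 on the same assembly, with 1894 of 1973 identifiers matched. TMM factors came from edgeR 4.0.16 on genes whose counts summed to at least 10, size factors from DESeq2 1.42.0, and tests from SciPy 1.17.1. For log2 ratios 0.5 was added to each count. With a single group, edgeR's quasi-likelihood test could not be used. Of the steps, only the exact binomial test was tried on simulated counts, which had unscaled totals and no spread between pools. The members, lists and tests were chosen with earlier results of these data known. Named genes are all members, the 3 highest of each seed list, Mir322's 3 nearest genes, and, named after their values were seen, single genes of the clusters, seed and marker lists.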

Additional observations from a re-analysis of the deposited data

How the results depend on the processing

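The cluster's share of 1.28% was 0.607% when reads mapping to several loci were added to the library totals and 1.71% when Mir99a, the most abundant gene, was left out of them, which follows from the denominators. It ranged from 1.21% to 1.36% when either library was left out. The order of the 7 levels held per gene length and in each library alone. All 7 members had at least 1 count in both libraries, 6 had at least 10 and 5 at least 100. The number called higher in replicate 2 was 5 with DESeq2 size factors, without a filter on low counts, with unstranded counts and with 1 added to each count, and 4 with unscaled totals. Mir351 changed sign, to -0.012, with unscaled totals. No member was called lower under any of these settings. Leaving out a library leaves no difference to test. No paired analysis was possible because the labels give a single group. Depth limits Mir450a-1 and Mir450a-2, at 9 to 17 counts.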
